A study of Rattus norvegicus with 12 samples.

Results

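The synaptotagmins are the calcium sensors and regulators of vesicle fusion, and 7 of their genes were examined here in the CA1 region of the rat hippocampus: Syt1, Syt2, Syt3, Syt4, Syt5, Syt7 and Syt11. The members were all probe sets whose only gene symbol in the platform annotation is one of these 7, which gave 9 probe sets of 15866 on the array. They cover 6 of the 7 genes, with 3 probe sets for Syt7, 2 for Syt4 and 1 each for Syt2, Syt3, Syt5 and Syt11. No probe set had Syt1 as its single symbol, so Syt1 is not analysed here. CA1 RNA from 12 male Long-Evans rats, 3 to 4 months old, was hybridised to Affymetrix RAE230A arrays, 1 per animal, on which each transcript is read by a group of short probes called a probe set. All 12 rats had first learned a standard water maze and, 2 to 3 weeks later, swam 8 trials at intervals of 8 minutes in a new maze with a visible platform. In the spatial learning group (6 rats) orienting cues were present and the platform kept its place, whereas in the control task group (6 rats) the platform moved between trials and informative cues were missing. Each rat had a 90-second probe trial without the platform 1 hour after training, and was killed directly afterwards. The comparison asks which synaptotagmin transcripts differ in CA1 after a place could be learned, and a difference below is the spatial learning mean less the control task mean of log2 signal.

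Synaptotagmins are membrane proteins with a single transmembrane segment and a pair of C2 domains, modules that in many family members bind calcium and then engage phospholipids and SNARE proteins. Syt1 and Syt2 sit on synaptic vesicles and trigger fast, synchronous transmitter release, Syt7 is a slower sensor of high calcium affinity linked to asynchronous release and facilitation, and Syt3 and Syt5 also bind calcium. Syt4 and Syt11 are close relatives of each other whose first C2 domain carries a substitution that impairs calcium binding, and Syt4 was described as an activity-induced gene found on dense-core vesicles, including those that carry BDNF.

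The 2 members with the smallest p-values, Syt4 (probe set 1387662_at) and Syt11, also had the highest rank correlation between animals of any member pair. That correlation did not pass after adjustment (values below), and the second Syt4 probe set was not set against Syt11. The 250 bases upstream of their annotated transcription starts are shown because of that choice of genes. The sequences are RefSeq's on the GRCr8 assembly, and 5 of the 7 genes had an entry. The Syt4 stretch is chr18:23320864-23321113 and the Syt11 stretch chr2:176529776-176530025, both on the minus strand and written 5′ to 3′. Capitals mark the matches to the motifs searched.
Syt4: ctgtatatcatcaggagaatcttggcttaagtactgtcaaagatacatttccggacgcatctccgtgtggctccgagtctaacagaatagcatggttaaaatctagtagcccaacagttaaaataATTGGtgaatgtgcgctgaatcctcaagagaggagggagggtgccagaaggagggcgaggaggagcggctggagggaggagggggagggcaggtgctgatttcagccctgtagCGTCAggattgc
Syt11: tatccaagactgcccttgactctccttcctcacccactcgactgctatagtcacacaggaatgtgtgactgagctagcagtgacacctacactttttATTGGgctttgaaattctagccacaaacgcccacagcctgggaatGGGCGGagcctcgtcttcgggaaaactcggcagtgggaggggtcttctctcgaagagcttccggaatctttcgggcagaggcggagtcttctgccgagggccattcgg
Both stretches held 1 CCAAT box (CCAAT, here read on the other strand as ATTGG), first base at -125 in Syt4 and -153 in Syt11, a motif present in 34% of the 33469 annotated rat promoter entries of this length. The Syt4 stretch also held 1 core of the cyclic AMP response element (TGACG, here CGTCA) at -12, as did 18.2% of all entries, and the Syt11 stretch 1 GC box (GGGCGG) at -108, as did 30.5%. The full cyclic AMP response element (TGACGTCA, 1.59% of entries), the AP-1 site (TGANTCA, 6.34%) and the TATA box (TATAAA, 12.9%) were searched on both strands with no match in either stretch. The core is part of the full element. The GC content was 51.2% in Syt4 and 54.8% in Syt11, where the median entry had 51.2%. These are matches of letters only.

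The probe sets were divided by the level set for testing, a mean of at least 4 over the 12 arrays (log2). Of the 9, 6 reached it and 3 lay close to the floor of the array. The dimmest of the 6, Syt7 (1370514_a_at), stood at a middle level, with 47.0% of the array's probe sets dimmer. By mean signal the order was Syt4 (1387662_at) at 10.18 ± 0.16, Syt4 (1375877_at) at 9.99 ± 0.10, Syt11 at 9.12 ± 0.11, Syt5 at 8.29 ± 0.17, Syt3 at 7.49 ± 0.14 and Syt7 (1370514_a_at) at 5.06 ± 0.11 (log2, mean ± SD, n = 12). The dim ones were Syt7 (1369185_a_at) at 2.29 ± 0.12, Syt7 (1370515_x_at) at 2.28 ± 0.02 and Syt2 at 2.15 ± 0.01. Of all probe sets on the array 16.8% had a mean under 2.5.

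The order was nearly the same in every animal. From Syt4 (1375877_at) down to Syt7 (1370514_a_at), each probe set lay above the next in 12 of 12 arrays, with mean gaps between 0.80 and 2.43. The 2 exceptions were pairs of probe sets for 1 gene. The brighter Syt4 probe set exceeded the other in 10 of 12 arrays, by 0.19 ± 0.17 (mean ± SD, n = 12), and the 2 dim Syt7 probe sets, 0.01 ± 0.13 apart, were in that order in 4 of 12. Probes differ in how strongly they bind, so this is an order of signals and not of transcript amounts. The 3 Syt7 probe sets carry the same accession in the annotation, and the brightest stood 2.77 above the next (mean over 12 arrays).

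**Figure D1:**
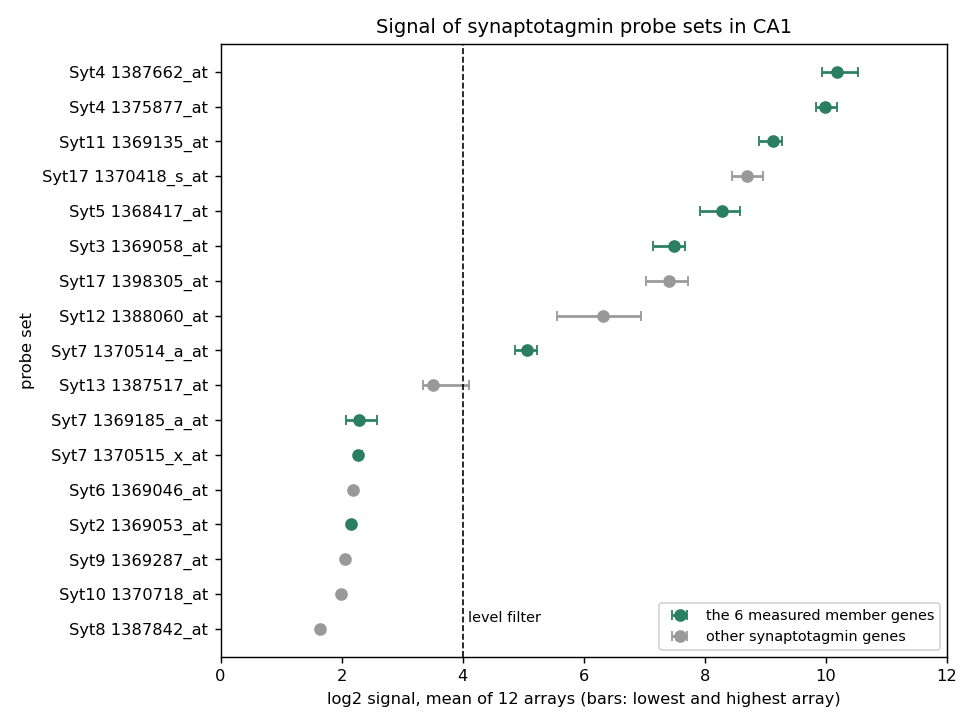
Mean log2 signal over the 12 arrays for each synaptotagmin probe set, with bars from the lowest to the highest array; green points are the 6 measured member genes, grey points other synaptotagmin genes, and the dashed line is the level of 4 needed for testing. Syt4, Syt11, Syt5, Syt3 and 1 Syt7 probe set lie right of the line, while Syt2 and the other 2 Syt7 probe sets lie near 2.

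No member passed the test after spatial learning, and in no member did the groups separate. Over the whole array 0 of 9610 tested probe sets passed with limma at an adjusted p of 0.05 (0%), and 0 of the 6 synaptotagmin probe sets did. At an unadjusted limma p under 0.05 there were 1048 of 9610 over the array (10.9%), 4.55% being lower and 6.36% higher, and 2 of the 6 members, 1 Syt4 probe set and Syt11, both lower. The 2 groups did not overlap at all in 0.635% of tested probe sets and in 0 of the 6 members. The exact rank-sum test gave 0 calls over the array after adjustment, 896 probe sets and 1 member, Syt11, at an unadjusted p under 0.05. For Syt4 (1387662_at) the unadjusted rank-sum p was 0.0649. Counted through the brightest probe set per gene, 3 of 5 genes were lower and 2 higher, with a median difference of -0.08, beside a median of 0.01 and 46.3% lower over all tested probe sets.

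**Figure D2:**
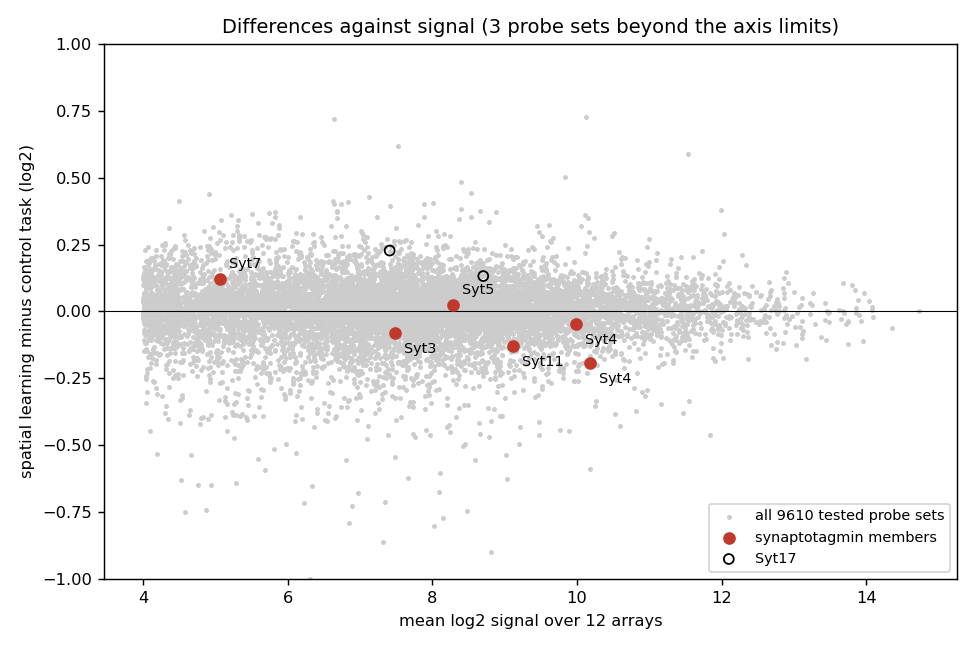
Difference between the groups (spatial learning minus control task, log2) against mean signal over 12 arrays, 1 point per tested probe set, with the synaptotagmin members in red and Syt17 as open circles; 3 probe sets lie outside the vertical limits. The 6 members lie inside the cloud of all tested probe sets, between -0.19 and 0.12.

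Syt4, the dense-core vesicle synaptotagmin, gave the widest difference of the 6 tested member probe sets and did so on 1 of its 2. On 1387662_at the control task arrays ran from 10.16 through a median of 10.23 to 10.53, and the spatial learning arrays from 9.93 through 10.06 to 10.27. The groups overlapped: 4 of the 6 spatial learning arrays lay below the lowest control, replicates 4 and 5 lay within the control range, and control replicate 4 was the highest of all 12. The means were 10.28 ± 0.13 and 10.08 ± 0.13 (mean ± SD, n = 6 each), a difference of -0.19 (SE 0.07, 95% interval -0.35 to -0.04), which on the linear scale is -12.5% with an interval from -21.3% to -2.71%. It did not pass over all probe sets (limma adjusted p = 0.429, unadjusted 0.0175, exact permutation p = 0.0303 unadjusted). In whole tissue, fewer cells of a type and less RNA per cell cannot be told apart.

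The second Syt4 probe set, 1375877_at, gave a smaller difference. Its control values ran from 9.89 through 10.00 to 10.18 and its spatial learning values from 9.84 through 9.99 to 10.07, so that the groups overlapped almost fully. The difference was -0.05 (SE 0.06, 95% interval -0.17 to 0.08, limma adjusted p = 0.800). Leaving out 1 array moved it between -0.0144 (without control task replicate 5) and -0.07 (without control task replicate 6), and it was -0.02 without spatial learning replicate 3 and -0.03 without spatial learning replicate 5. Whether the 2 probe sets disagree was tested on their gap within each array, which was 0.26 ± 0.15 over the control task arrays and 0.12 ± 0.18 over the spatial learning arrays (mean ± SD, n = 6 each, exact permutation p = 0.165). The test thus did not tell the 2 probe sets' group differences apart, and with 6 arrays in a group it cannot show that they are equal. Beyond the group means the 2 probe sets did not vary together either, with Pearson r = 0.04 (permutation p = 0.897) and Spearman rho = -0.01 (permutation p = 0.991) over the 12 arrays, and r = -0.23 without the 2 arrays farthest from the median.

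**Figure D3:**
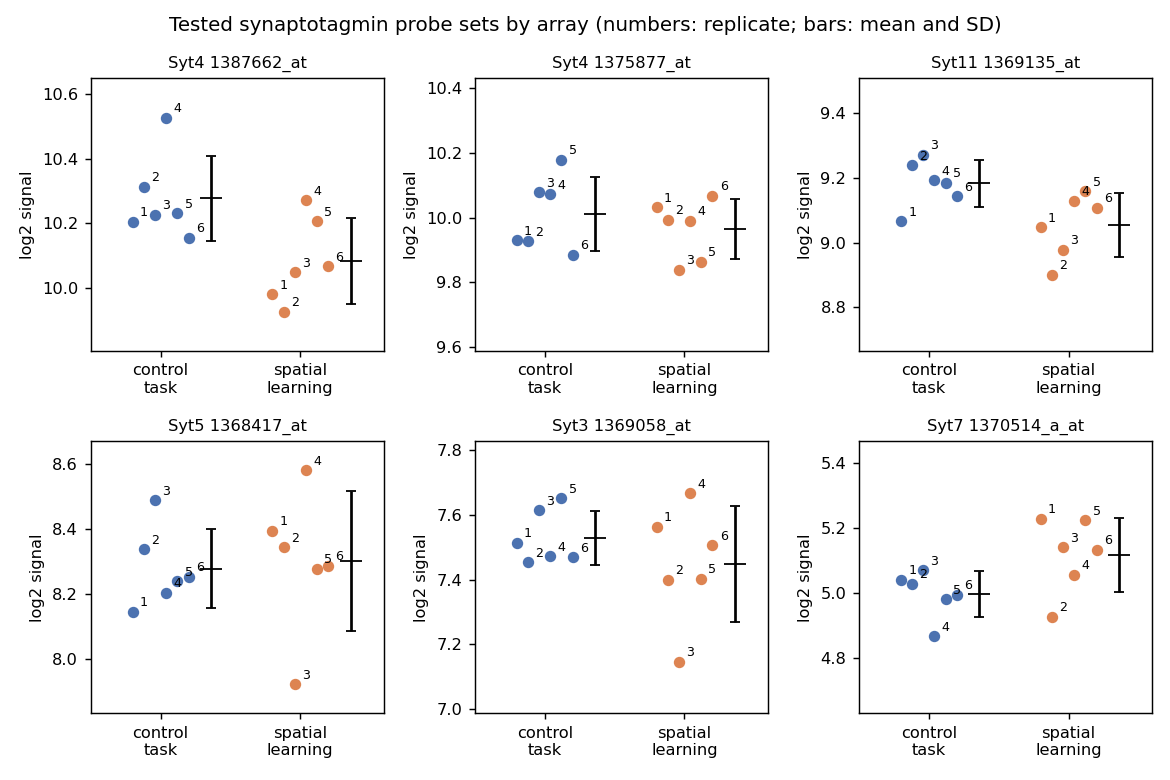
Log2 signal of the 6 tested synaptotagmin probe sets, 1 panel each, with 1 numbered point per array (control task blue, spatial learning orange) and the group mean with SD beside it; the panels have the same height of scale but different levels. For Syt4 1387662_at and Syt11 the orange points lie lower on average, for Syt7 higher, and in every panel the groups overlap.

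Syt11, the close relative of Syt4 and a substrate of the ubiquitin ligase parkin, showed a smaller gap with less spread. Control values ran from 9.07 through 9.19 to 9.27, and spatial learning values from 8.90 through 9.08 to 9.16. All 6 spatial learning arrays lay below the control median and 3 of them below the lowest control, and over the array 11.1% of tested probe sets had at least 3 there. The difference was -0.13 (SE 0.05, 95% interval -0.24 to -0.02), or -8.56% with an interval from -15.4% to -1.18% (limma adjusted p = 0.429, unadjusted 0.0270, exact permutation p = 0.0281 unadjusted). Its pooled SD within groups, 0.09, was low for the array, with 24.6% of tested probe sets having a smaller one.

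The hexokinase control transcript moved with the groups beside both of these genes. Its signal gap between 3′ and 5′ probe sets, a measure of RNA integrity, ran from 1.35 to 1.55 in the control task arrays and from 1.55 to 1.82 in the spatial learning group, with 5 of 6 spatial learning arrays above the highest control. With that gap as a covariate the difference was -0.09 for Syt4 (1387662_at) and -0.09 for Syt11 (limma adjusted p = 0.876 and 0.825). In that fit 0 of the 6 members had an unadjusted limma p under 0.05. Over the array 605 of 9610 probe sets did, where the main fit had 1048. Syt3 stood at -0.04 and the second Syt4 probe set at -0.02 with the covariate, and Syt7 at 0.15. Because the gap hardly overlapped between the groups, the task and RNA integrity cannot be told apart by this fit.

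Syt7, the slow high-affinity sensor, was the only member with a probe set that leaned upward by more than 0.1. On 1370514_a_at the control values ran from 4.87 through 5.01 to 5.07 and the spatial learning values from 4.93 through 5.14 to 5.23. Of the 6 spatial learning arrays, 4 lay above the highest control and 1, replicate 2, below the control median. The difference was 0.12 (SE 0.06, 95% interval -0.0022 to 0.25), or 8.80% with an interval from -0.155% to 18.6% (limma adjusted p = 0.461, unadjusted 0.0537, exact permutation p = 0.0541 unadjusted). The 2 dim Syt7 probe sets, at levels of 2.29 and 2.28, were left out of the limma test. Their raw differences were -0.12 (1369185_a_at, exact permutation p = 0.0411 unadjusted) and 0.01 (1370515_x_at). The first is opposite in sign to 1370514_a_at, but at this level no difference was read from either.

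Syt5 and Syt3, both calcium-binding members, lay near 0 with wider spread among the spatial learning arrays. Syt5 ran from 8.14 through 8.25 to 8.49 in the control task arrays and from 7.92 through 8.31 to 8.58 in the spatial learning group, whose range enclosed the control range. Its difference was 0.02 (SE 0.09), with a 95% interval from -0.18 to 0.23 that leaves room for changes between -11.7% and 16.9% (limma adjusted p = 0.948). Syt3 ran from 7.45 through 7.49 to 7.65 and from 7.15 through 7.45 to 7.67, a difference of -0.08 (SE 0.08, 95% interval -0.25 to 0.09, limma adjusted p = 0.740). In both genes spatial learning replicate 3 was the lowest of the 12 arrays and replicate 4 of that group the highest. Without spatial learning replicate 3 the differences were 0.10 for Syt5 and -0.02 for Syt3, and without spatial learning replicate 4 Syt3 stood at -0.13. Syt5 turned to -0.03 without spatial learning replicate 4 and to -0.0037 without control replicate 1.

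Syt2, the fast sensor of brainstem synapses and of the terminals of parvalbumin interneurons, stood among the lowest signals of the array. Its probe set ran from 2.14 to 2.15 in the control task arrays and from 2.14 to 2.19 in the spatial learning group, and 8.29% of the array's probe sets were dimmer. At this level the value gives only a bound, and no difference was read from it. Of the interneuron markers listed, Pvalb (parvalbumin) stood at 8.65 and Gad1 (a GABA synthesis enzyme) at 10.55 (log2, means over 12 arrays). Others were dimmer, such as Gad2 at 7.26 and Slc32a1 at 7.19, and Calb2 (3.66) and Tac1 (2.39) lay below the tested level. Probes differ in how strongly they bind, so these levels cannot be set against that of Syt2. The per-array mean of 11 tested interneuron markers of 14 listed ran from 8.54 to 8.79 in the control task arrays and from 8.62 to 8.87 in the spatial learning group.

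**Figure D4:**
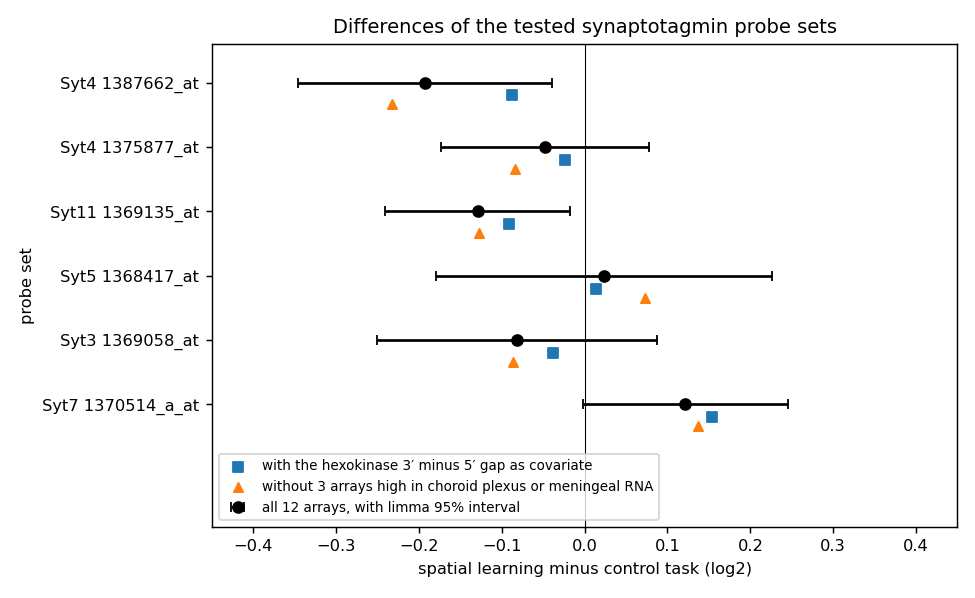
Spatial learning minus control task difference (log2) of each tested synaptotagmin probe set with limma's 95% interval (black), with the hexokinase gap as a covariate (blue squares) and without 3 arrays high in choroid plexus or meningeal transcripts (orange triangles). The intervals of Syt4 1387662_at and Syt11 lie below 0 before adjustment over the array, and both values lie nearer to 0 with the covariate, at -0.09.

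Between animals, Syt5 and Syt3 gave the closest relation by r, and Syt4 and Syt11 by rank. After removal of group means, the 10 pairs among the 5 tested genes gave Pearson r from -0.14 to 0.82 over 12 arrays. Syt5 and Syt3 had r = 0.82 (permutation p = 0.00247, adjusted over the 10 pairs 0.0247) but rho = 0.50 (permutation p = 0.0973, adjusted 0.324). Without the 2 arrays farthest from the Syt5 median, r was 0.36, so that the relation rests on those arrays, and without spatial learning replicate 3 alone it was 0.60. Syt4 (1387662_at) and Syt11 had r = 0.58 (permutation p = 0.0471, adjusted 0.235) and rho = 0.67 (permutation p = 0.0205, adjusted 0.205), and r was 0.73 without the 2 farthest arrays. Syt4 gave r = 0.15 with Syt5 and 0.12 with Syt3, while Syt11 gave r = 0.51 with Syt5. After adjustment 1 pair passed by r and 0 by rho.

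**Figure D5:**
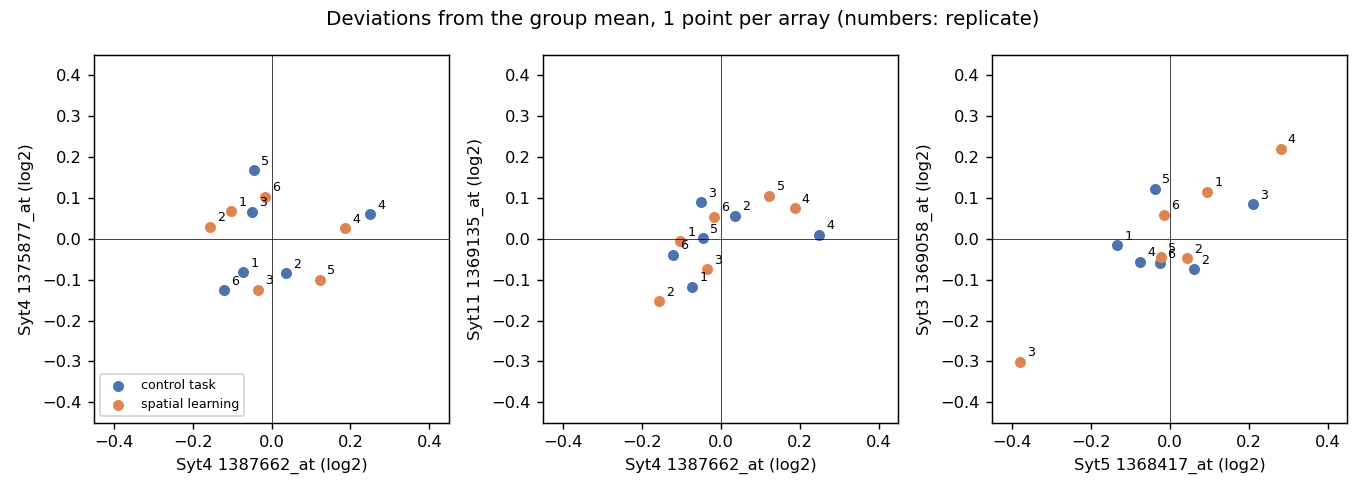
Deviation of each array from its group mean (log2) for 3 pairs of probe sets, with arrays numbered by replicate, control task blue and spatial learning orange. The 2 Syt4 probe sets show no common direction (r = 0.04), and Syt4 1387662_at and Syt11 a loose one (r = 0.58). The Syt5 and Syt3 relation (r = 0.82) leans on spatial learning replicates 3 and 4.

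The genes whose array-to-array pattern was most like each member, among 6866 others and with group means removed, were found by Pearson r over the 12 arrays and are given as a description. Each member was read through its brightest tested probe set, for Syt4 1387662_at alone. They were Arhgef17 (r = 0.89) and Jkamp (0.87) for Syt4, Nedd8 (0.91) and Get4 (0.89) for Syt11, Commd6 (0.95) and Kcnmb4 (0.90) for Syt5, Shmt2 (0.94) and Preb (0.90) for Syt3, and Mrpl28 (0.91) and Tgm4 (0.90) for Syt7. These are the highest of 6866 values of r per member, and how high such values stand by chance was not tested. No gene was named for 2 members. Each point is 1 array, so that members and these genes share the animal, the dissection and the RNA quality.

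The remaining relatives with C2 domains were also without a call. Of 31 listed genes 21 had a probe set and 11 were tested, 5 higher and 6 lower, with a median difference of -0.05. Unc13a, a vesicle priming factor, stood at -0.18 (SE 0.08), Rims2, an active zone scaffold, at -0.16 (SE 0.08) and its paralogue Rims1 at -0.17 (SE 0.08), with limma adjusted p between 0.447 and 0.471. Unc13a was -0.12 without control task replicate 4, Rims2 -0.11 without control task replicate 6, and Rims1 -0.26 without the 3 arrays high in choroid plexus or meningeal transcripts (named below). Of 7 further synaptotagmins on the array 5 had no probe set at the tested level: Syt6, Syt8, Syt9 and Syt10 lay between 1.64 and 2.19 and Syt13 at 3.51. Syt12, which lacks calcium binding, stood at 6.32 with a difference of 0.13 (SE 0.19). Both tested probe sets of Syt17, singled out after their values were seen, were above 0, at 0.13 (SE 0.07, 1370418_s_at) and 0.23 (SE 0.09, 1398305_at), with limma adjusted p of 0.480 and 0.429. With the hexokinase gap as a covariate they were wider, at 0.26 and 0.34, where the Syt4 and Syt11 values were nearer to 0.

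The partners of synaptotagmin in fusion and vesicle recycling were likewise mixed, and 0 passed. Of 15 tested SNAREs, complexins and chaperones 8 were lower and 7 higher (median -0.03). Cplx2, a complexin that clamps and promotes fusion with Syt1, stood at -0.77 (SE 0.22), Nsf, the ATPase that takes SNARE complexes apart, at -0.08 (SE 0.03) and Stx1a, a plasma membrane SNARE, at -0.16 (SE 0.08), with limma adjusted p from 0.388 to 0.466. With the hexokinase covariate Cplx2 was -0.51. Of 19 vesicle proteins and endocytic adaptors 12 were lower and 7 higher (median -0.02, or -0.05 with each gene taken as the mean of its tested probe sets), led by Synpr (synaptoporin) at -0.63 (SE 0.18), Syngr3 (synaptogyrin) at 0.18 (SE 0.07) and Snap91 (the clathrin adaptor AP180) at -0.11 (SE 0.05).

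Presynaptic calcium channels, the source of the calcium that synaptotagmins sense, had 5 of 7 tested genes higher and 2 lower (median 0.12, or 0.05 with each gene taken as the mean of its tested probe sets). Those with the smallest p were Cacnb2 at 0.16 (SE 0.06), Cacnb1 at 0.15 (SE 0.06) and Cacna1b, the N-type pore subunit, at 0.12 (SE 0.06), with limma adjusted p from 0.427 to 0.517. Cacna1b was 0.08 without spatial learning replicate 1 and 0.19 with the hexokinase covariate. Genes induced by neuronal activity, to which Syt4 has been counted, were 8 higher and 7 lower of 15 tested (median 0.00), with Fos at -0.79 (SE 0.21), Rasd1 at 0.30 (SE 0.09) and Homer1 at 0.32 (SE 0.10), again with 0 past the threshold.

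Field and cell type markers were read beside these values, as lists and with no comparison of level between probe sets. The 2 brightest tested CA1 markers were Wfs1 (12.03) and Mpped1 (11.94). For CA3 they were Nnat (11.54) and Bok (8.88), and for the dentate gyrus Calb1 (10.96) and Stxbp6 (8.999). Others in the lists were dimmer, such as Dcn (7.90) for CA1, Prss23 (6.56) and Grik4 (6.06) for CA3, and Prox1 (5.74) and Trpc6 (4.44) for the dentate gyrus. The brightest of a list do not show how much of a field was present. The per-array mean of 7 CA1 markers ran from 10.21 to 10.49 in the control task arrays and from 10.27 to 10.63 in the spatial learning arrays, with 3 of 6 above the highest control, and 7 of 7 markers had a difference above 0. That of 5 dentate markers ran from 7.33 to 7.83 and from 7.30 to 7.61 (2 of 6 below the lowest control, 4 of 5 markers below 0), and that of 4 CA3 markers from 8.15 to 8.47 and from 8.09 to 8.55 (2 of 4 below 0). For 8 astrocyte markers it ran from 10.35 to 10.44 and from 10.24 to 10.40 (4 of 6 arrays below the lowest control, 7 of 8 markers below 0). Microglia markers spanned 6.87 to 7.39 and 6.76 to 7.18 (2 of 6 arrays below, 7 of 7 markers below 0), neighbouring region markers 6.61 to 7.04 and 6.37 to 6.75 (2 of 6 arrays below, 4 of 4 markers below 0), and oligodendrocyte markers 10.55 to 10.93 and 10.57 to 10.95 (1 of 6 arrays above, 6 of 8 markers below 0). Choroid plexus markers spanned 5.94 to 9.49 and 5.70 to 6.05 (4 of 6 arrays below, 2 of 3 markers below 0). Of these 3, Ttr had a difference of -3.33, Enpp2 of -0.41 and Kcne2 of 0.18. Meningeal markers spanned 6.06 to 7.95 and 5.99 to 7.66 (2 of 6 arrays below, 4 of 5 markers below 0). With limma 0 of these markers passed. Their part in the synaptotagmin values was not tested. Without the 3 arrays that stood highest in choroid plexus or meningeal transcripts (control replicates 3 and 6, spatial learning replicate 6) the differences were -0.23 for Syt4 (1387662_at), -0.13 for Syt11 and 0.14 for Syt7.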

How the data were processed

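Deposited values were 1 table of log2 probe set summaries for 12 arrays, made by the authors with GCRMA per the submitters' processing notes (version not given in the sources used here); the log2 scale was read from their range, 0.134 to 14.8. GCRMA makes the arrays' distributions nearly equal and compresses dim differences. Of 15923 rows, 57 controls were left out; 12783 of the others have 1 gene symbol. Probe sets with a mean of at least 4 (9610) were fitted with limma 3.58.1 in R 4.3.3 (intensity trend, group only, Benjamini-Hochberg over all, threshold 0.05). Single values were also tested by 2-sided exact permutation over 924 splits (smallest p 0.00216); correlations used 100000 permutations. Members and lists were chosen with earlier results of these data known. Named genes were all members, the 3 of each partner list with the smallest p, the 2 brightest of the field marker lists and the 2 most alike per member. The other synaptotagmins, the single interneuron markers and the dimmer field markers were added after values were seen. The procedure was tested on simulated data for this comparison (9605 probe sets): 88% of 100 changed by 0.5 and 99% of 100 changed by 1 were recovered, with 9 unchanged ones called. The changed probe sets were drawn from those at least 1 above the level of 4. Noise was drawn independently for each value, with no shift shared by an array. Both sizes exceed every tested member difference, and recovery of changes as small as those was not tested. Replicates are called biological in the titles. Alternatives were other filters, normalizations, weights, a replicate block, left-out arrays and the hexokinase gap as a covariate. Protein sequences, listed in the design, are not used here. No label names a scan date or hybridisation batch, and none was tested. Precision is limited by having 6 arrays in a group.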

Additional observations from a re-analysis of the deposited data

Results flagged for a closer look

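In 18 groups of 6 values (9 probe sets, 2 groups each) the highest or lowest array stood apart from the rest in 2, both on probe sets near the floor, where chance gives about 1 group in 20. Spatial learning replicate 3 was lowest on the dim Syt7 probe set 1369185_a_at at 2.07, while the other 5 arrays of its group lay between 2.24 and 2.29. The same array was highest on Syt2 at 2.19. Its gap to the nearest array was 83.7% of the group's range there and 79.3% on the Syt7 probe set, above the limit of 62.5% for 6 values.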

How the results depend on the processing

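The count of synaptotagmin probe sets past the threshold was 0 in the main setting and in 23 alternatives. The count over the array, 0, was 3 with array weights, 5 without the 3 arrays high in choroid plexus or meningeal transcripts, and 0 to 3 when 1 array was left out, the 3 coming without control task replicate 6. The Syt4 (1387662_at) difference stayed negative, between -0.23 and -0.09, with an adjusted p from 0.294 to 0.876. Its unadjusted limma or rank-sum p was under 0.05 in 21 of 23 alternatives, which share most of their arrays. The exceptions were the exact rank-sum test (p = 0.0649) and the hexokinase covariate (limma p = 0.372). Syt11 stayed between -0.15 and -0.09 (16 of 23), and Syt7 (1370514_a_at) between 0.09 and 0.16 (3 of 22). Syt3 (-0.13 to -0.02) and the second Syt4 probe set (-0.08 to -0.0144) kept their sign in 23 alternatives but moved by more than 1.5 times. The same held for Syt4 (1387662_at), which went from -0.19 in the main fit to -0.09 with the hexokinase covariate. Syt5 (main value 0.02) changed sign without control task replicate 1 (-0.0037) and without spatial learning replicate 4 (-0.03); leaving out 1 array gave values from -0.0331 to 0.0991. Arrays with the same replicate number were not alike (correlations of same-numbered deviations from -0.17 to 0.08), which cannot show whether the rats were paired. With the replicate block 0 probe sets passed over the array, 0 of them synaptotagmins. The unadjusted limma p of Syt4 (1387662_at) was then 0.00664, where the main fit had 0.0175. That of Syt11 was 0.0643 (main fit 0.0270), and the other tested members also had a larger p. The spread between 6 arrays per group limits what can be seen: the median SE of a difference was 0.0684.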
